A study of Mus musculus with 12 samples.

Results

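Narrow regions of acetylated histone H3 at the ends of single genes were examined in T helper 17 cells with and without the glucose transporter GLUT3. They are the regions under 8 kb (8000 bp) with a peak in all 6 libraries that lay within 2 kb of an end of exactly 1 protein-coding gene. Peaks of the 6 paired-end lists were merged where they overlapped or touched, which gave 56607 union regions. Of these, 20097 had a peak in all 6 libraries, 18876 of the 20097 were under 8 kb, and 7116 met the whole rule. The members were chosen by measured values, since a peak in every library and a narrow width were required, and neither property is a finding. Genes and gene ends came from the GRCm38 annotation.

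The mark was acetylation on lysines 9 and 14 of histone H3 (H3K9/14ac), read by RELACS, a ChIP-seq method in which chromatin is barcoded within nuclei and the samples are then pooled for the antibody step. The cells were mouse T helper 17 (Th17) cells of strain C57BL/6, grown from naive CD4+ T cells for 3 days under polarizing conditions. Cells of both genotypes were restimulated for 3 h with PMA and ionomycin while Bref A and Monensin were present, so no group was left unstimulated. The wild type (WT, 3 libraries) was compared with Slc2a3-fl/fl Cd4-cre cells (KO, 3 libraries), which lack the glucose transporter GLUT3, and 6 input libraries were not used here. Cd4-cre acts in every cell that expresses Cd4 during T cell development, and the labels do not say whether the WT mice carried it. The labels do not say that libraries came from separate mice, so p-values measure only the spread between these libraries, which may be technical.

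Acetylation of H3 at these lysines is laid down by histone acetyltransferases such as GCN5, PCAF, p300 and CBP, and it marks the nucleosomes that flank the start sites of active genes. Acetyl groups come from acetyl-CoA, much of which is made from glucose-derived citrate by the enzyme encoded by Acly. Genes used in most cells tend to have a start within a CpG island and a compact acetylated region, whereas genes of cell identity tend to have wide ones.

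Promoter sequences are shown for 7 members that stand at the extremes of level or of the difference between genotypes, or that held steady, so that their base composition can be set beside the values given further on. Genes with Gm or Rik symbols were left out of these ranks, here and further on. Each is RefSeq's stretch from 250 bases before to 50 after the start (GRCm38.p6), written 5′ to 3′ along the gene. Capitals mark matches, on either strand, to any of 9 short motifs. For core promoter elements the letters were TATAAA for the TATA box, then CCAAT for the element of that name, and GGGCGG for the GC box. For transcription factor families they were CCGGAAG for the ETS family, then TGACGTCA for the cyclic AMP response element (CRE), and CACGTG for the E-box. The other three were TGANTCA for the AP-1 site, then ATGGCGG for the factor YY1, and GCATGCGC for the factor NRF1. Of these motifs, none holds another within it. A match is a run of letters and not a measured binding site.

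The 2 members of highest mean acetylation whose promoter was in the table belong to Sec23b (chr2:144555979-144556278, plus strand), a COPII coat gene, and Septin7 (chr9:25251741-25252040, plus strand), a cytoskeletal septin gene. The first held 2 CCAAT matches and the second 1 E-box and 1 AP-1 match.
Sec23b: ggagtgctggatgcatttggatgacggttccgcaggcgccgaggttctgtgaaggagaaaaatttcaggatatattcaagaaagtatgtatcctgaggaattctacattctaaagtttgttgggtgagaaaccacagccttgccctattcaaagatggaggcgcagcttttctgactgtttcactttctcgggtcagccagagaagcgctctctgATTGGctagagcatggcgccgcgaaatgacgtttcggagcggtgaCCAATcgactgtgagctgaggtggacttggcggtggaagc
Septin7: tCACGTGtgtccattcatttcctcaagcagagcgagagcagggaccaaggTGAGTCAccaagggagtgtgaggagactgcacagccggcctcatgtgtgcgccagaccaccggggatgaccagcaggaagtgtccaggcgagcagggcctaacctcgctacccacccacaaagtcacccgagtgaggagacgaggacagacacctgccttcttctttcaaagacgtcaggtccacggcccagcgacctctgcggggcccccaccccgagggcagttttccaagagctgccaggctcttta

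Members that were lowest in KO relative to WT include those at the starts of M1ap (chr6:82946672-82946971, plus strand), a meiosis gene, and Nckap5l (chr15:99457699-99457998, minus strand). M1ap had 1 GC box. Nckap5l had 2 CCAAT matches and 2 GC boxes.
M1ap: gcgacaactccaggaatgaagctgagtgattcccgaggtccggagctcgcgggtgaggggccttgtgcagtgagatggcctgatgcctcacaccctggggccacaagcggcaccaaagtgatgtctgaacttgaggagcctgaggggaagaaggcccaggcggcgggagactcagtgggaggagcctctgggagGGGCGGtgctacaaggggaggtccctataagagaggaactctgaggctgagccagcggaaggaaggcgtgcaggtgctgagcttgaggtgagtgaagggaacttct
Nckap5l: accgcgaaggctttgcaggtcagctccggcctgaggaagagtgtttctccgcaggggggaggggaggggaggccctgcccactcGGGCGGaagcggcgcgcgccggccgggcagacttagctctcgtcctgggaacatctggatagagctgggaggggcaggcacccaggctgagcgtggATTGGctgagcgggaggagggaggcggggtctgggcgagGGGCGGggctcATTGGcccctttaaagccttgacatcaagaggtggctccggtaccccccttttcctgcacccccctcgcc

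Among the 8 members that were highest in KO, the one with a start from the promoter table inside the region belongs to Itih1 (chr14:30943240-30943539, minus strand), an inter-alpha-trypsin inhibitor heavy chain gene. Fam167a, Stmn4, Cavin3 and Zfp366, also among the 8, had no strand in that table, so whether their regions hold a start was not known. The Itih1 promoter had none of the 9 motifs. Its CpG ratio, the number of CpG dinucleotides over that expected from its C and G content, was 0.32.
Itih1: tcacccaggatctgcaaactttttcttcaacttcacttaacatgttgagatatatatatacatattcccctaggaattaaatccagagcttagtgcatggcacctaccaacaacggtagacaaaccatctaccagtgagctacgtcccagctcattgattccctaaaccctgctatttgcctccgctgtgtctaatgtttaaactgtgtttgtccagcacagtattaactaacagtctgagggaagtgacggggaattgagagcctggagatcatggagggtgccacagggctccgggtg

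Among members with a start from the promoter table inside the region, the steadiest over the 6 libraries belong to Cyp4v3 and Psmd2. Cyp4v3 (chr8:45333114-45333413, minus strand) is a cytochrome P450 gene. Psmd2 (chr16:20651402-20651701, plus strand) is a subunit gene of the proteasome's regulatory particle. Their CpG ratios were 0.76 and 0.81.
Cyp4v3: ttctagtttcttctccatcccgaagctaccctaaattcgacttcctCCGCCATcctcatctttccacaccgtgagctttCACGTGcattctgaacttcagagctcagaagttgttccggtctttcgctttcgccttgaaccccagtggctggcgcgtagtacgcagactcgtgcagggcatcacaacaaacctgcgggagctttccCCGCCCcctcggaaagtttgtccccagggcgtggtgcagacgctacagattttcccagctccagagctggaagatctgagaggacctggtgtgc
Psmd2: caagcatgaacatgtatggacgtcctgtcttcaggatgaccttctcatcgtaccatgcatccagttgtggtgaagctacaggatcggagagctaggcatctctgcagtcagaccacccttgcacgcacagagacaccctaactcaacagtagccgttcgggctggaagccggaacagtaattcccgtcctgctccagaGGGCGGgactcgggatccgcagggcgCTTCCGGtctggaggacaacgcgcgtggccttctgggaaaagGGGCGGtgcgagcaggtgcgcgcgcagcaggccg

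The 7116 regions lay at 6521 genes of the 21887 annotated protein-coding genes. A single such region was found at 5963 genes, a pair at 523 and 3 or 4 at 35. The gene end itself fell within the region for 5197 members. Region width had a median of 2213.5 bp, with quartiles of 1582.75 and 3166 bp and a range of 284 to 7981 bp. None lay on chromosome Y and 222 lay on X, and 172 belonged to genes with Gm or Rik symbols. The widest members, at Nabp1 and Nup210, spanned 7981 and 7975 bp, while the narrowest regions left out by width alone, at Mbp and Tgfbr2, spanned 8002 and 8019 bp. Members farthest from their gene end, at Spred2 and Sdcbp2, lay 1998 and 1996 bp away.

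Levels are given as relative height, the fragment pile-up at a region's highest summit divided by the mean coverage of its library. Mean coverage was 3.99, 3.48 and 2.97 fragments in WT libraries 1 to 3 and 1.85, 2.29 and 1.92 in KO libraries 1 to 3, so KO libraries were shallower without overlap (exact permutation p = 0.1, two-sided, the smallest p that 3 against 3 allows). Behind a median member stood 145 to 179 fragments at the summit in WT and 89 to 106 in KO, and the shallowest member had 10. Across members, log2 relative heights correlated at 0.961 to 0.975 between WT libraries, 0.956 to 0.962 between KO libraries and 0.875 to 0.90 between genotypes, a description over regions that are not independent. KO library 3 held 11 peaks on chromosome Y against 1 or 2 in the others. X-linked members lay 0.31 to 0.45 log2 units below autosomal ones in every library, and KO library 3 (-0.31) was within that range.

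Defining markers were checked through shared regions at gene ends of any width. Such a region was present for 11 of 12 annotated Th17 and T cell genes, among them Cd3e, Cd4 and Il17a, with Il17f the exception. Shared regions were also found for 3 of 9 B cell genes, 5 of 10 myeloid genes, 0 of 8 erythroid genes and 5 of 10 genes of CD8 T cells and NK cells. Those present were Cd79a, Ebf1 and Vpreb1 of the B cell genes, and Cd14, Csf1r, Csf3r, Fcgr3 and Spi1 of the myeloid genes. Of the CD8 T and NK cell genes they were Cd8b1, Eomes, Klrd1, Klrk1 and Nkg7. Among the genes without such a region were Ms4a1, Pax5, Lyz2, Itgam, Cd8a and Ncr1. Whether other cells were present was not tested.

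Relative height of the median member did not separate the genotypes. The median member had a relative height of 44.9, 50.6 and 48.8 in the WT libraries and 48.2, 46.4 and 46.8 in the KO libraries. These values overlap, with a KO minus WT difference of -0.03 log2 units (exact permutation p = 0.6, two-sided, Benjamini-Hochberg adjusted p = 0.675 over 9 library measures, n = 3 per genotype). A p that high does not show that the levels were alike, and the difference depends on the divisor. Division by mean coverage removes a change shared by a whole library, and the inputs were not used. A global change in acetylation between genotypes was therefore not tested. Peak-covered width did separate the genotypes: the median was 1941, 1877 and 1891.5 bp in WT and 1575, 1634 and 1566 bp in KO. Every KO library was below every WT library, with a difference of -311.5 bp (exact permutation p = 0.1, adjusted p = 0.15). The rule limited the merged width and required a peak in every library, so this width was measured on peaks that the rule had used. Mean coverage separates the libraries in the same way, and its part in the width was not tested. Members were also split more often in KO, with 1 peak in 82.0% to 84.5% of members against 88.7% to 89.2% in WT.

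**Figure D1:**
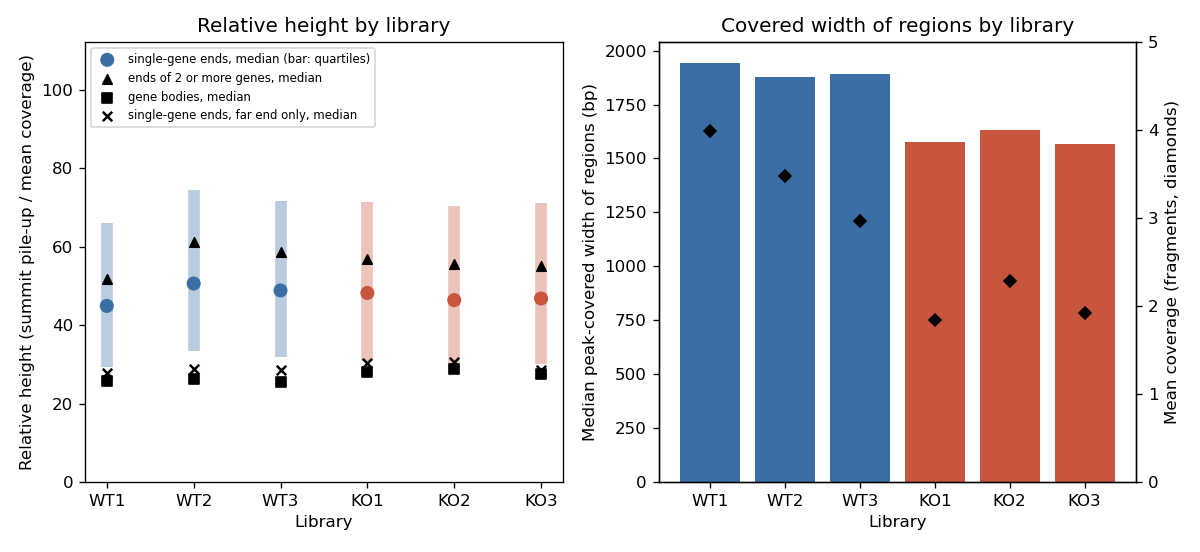
Left, relative height (summit pile-up over mean coverage) by library: coloured points are medians of the 7116 single-gene-end regions with their quartiles as bars, and black marks are medians of other classes and of regions at the far gene end. Right, median peak-covered width in bp as bars from 0 and mean coverage in fragments as diamonds: all 3 KO libraries, at 1566 to 1634 bp, are below the WT libraries and also have lower coverage.

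Regions at single gene ends were taller than those in gene bodies and shorter than those shared between gene ends. Narrow shared regions within gene bodies (5362) had median relative heights of 25.8, 26.2 and 25.6 in WT and 28.1, 28.9 and 27.5 in KO, well below the members in each library. The difference averaged 0.82 ± 0.10 log2 units (SD, n = 6 libraries) and was positive in 6 of 6 (exact sign-flip permutation p = 0.03125, two-sided, the smallest p for 6 libraries, adjusted p = 0.0938). The gap was 0.89 ± 0.08 in WT and 0.74 ± 0.05 in KO, a KO minus WT difference of -0.15 (exact permutation p = 0.1, adjusted p = 0.15). Regions near ends of 2 or more genes (2362), where a pair of starts can share one region, were taller, with medians of 51.6, 61.2 and 58.6 in WT and 56.8, 55.5 and 55.1 in KO. Members lay 0.25 ± 0.03 log2 units below them in 6 of 6 libraries (exact sign-flip permutation p = 0.03125, adjusted p = 0.0938). That gap differed by 0.00 between genotypes (exact permutation p = 0.9).

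Strand was known for the genes of 5754 members. The region overlapped or lay nearest the start at 5114 of them, the far end at 417 and both ends at 223, and 1362 members had no strand in the promoter table. Start regions had median relative heights of 45.9, 52.2 and 50.5 in WT and 48.7, 47.2 and 47.8 in KO. Far-end regions reached 27.8, 28.7 and 28.6 in WT and 30.3, 30.6 and 28.6 in KO, close to the gene-body level. Starts were higher by 0.74 ± 0.09 log2 units in 6 of 6 libraries (exact sign-flip permutation p = 0.03125, adjusted p = 0.0938), a comparison chosen after the data were seen.

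Summits sat beside the start rather than on it. For the 4334 members with a RefSeq start inside them, the median summit, taken over the libraries, was 143 bp into the gene, with quartiles at -182 and 347.5 bp. It lay downstream at 66.1% of members, 50 to 550 bp downstream at 50.9%, the same distance upstream at 28.2%, and within 50 bp of the start at 3.81%. Downstream shares were 62.9%, 64.9% and 64.1% in WT and 67.8%, 66.4% and 67.4% in KO, so each KO library was above each WT library, which was not tested. The summits of a member spread over a median of 124 bp between libraries, and within 150 bp at 52.9% of members.

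**Figure D2:**
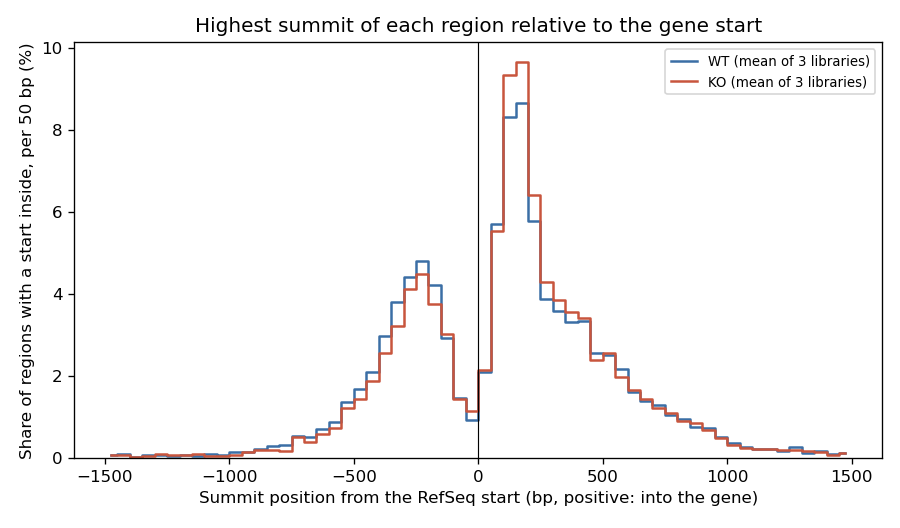
Position of the highest summit of 4334 regions relative to the RefSeq start, in bp with positive values into the gene, as the share of regions per 50 bp, averaged over 3 WT and 3 KO libraries. Both genotypes show a large mode downstream and a smaller one upstream, with few summits (2.93% to 3.41% in each library) within 50 bp of the start.

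Base composition of these starts was that of CpG-rich promoters. The median CpG ratio of the 4334 starts was 0.81, against 0.38 over all 32851 promoters in the RefSeq table. Ratios under 0.2 were found at 2.10% of member starts and at 28.7% of all promoters. Relative height was higher where CpGs were denser, with a median of 41.8 at ratios under 0.2 and 56.7 at ratios of 1 or more (Spearman's rank correlation over regions 0.14, a description over regions of the same libraries). The GC box was present in 70.1% of member starts and 35.7% of all promoters, the ETS letters in 20.2% and 8.86%, and those of YY1 in 9.51% and 4.05%. NRF1 letters were found in 6.83% against 2.71%, CRE in 3.81% against 1.79%, and the E-box in 10.6% against 7.15%. TATAAA was rarer in member starts (6.41% against 13.6%), as was the AP-1 site (4.13% against 7.81%), and CCAAT was equally common (37.8% against 37.4%).

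Members changed in both directions. On relative heights, limma called 982 members lower in KO (13.8%) and 918 higher (12.9%), and left 5216 uncalled, at a Benjamini-Hochberg adjusted p under 0.05 over all 20097 shared regions. Over all shared regions the same limma test called 14.8% lower and 19.7% higher, so the members' share of higher calls was below that background and their share of lower calls near it. Groups did not overlap, with every KO library below every WT library, at 1321 members (18.6%, against 19.0% of all shared regions), and with every KO library above at 1374 (19.3%, against 25.7%). Gene-body regions had 13.8% lower and 27.0% higher calls by limma, and regions at ends of 2 or more genes had 11.3% and 11.0%. The median KO minus WT difference of members was 0.00 log2 units, 90% of members lay between -0.62 and 0.57, and the median was 0.12 in gene bodies and 0.04 over all shared regions. In bulk chromatin, fewer cells with the mark and less of it per cell cannot be told apart. Calls of at least 1 log2 unit numbered 65 lower (0.913%, against 1.77% of all shared regions) and 99 higher (1.39%, against 3.48%). On the deposited fold enrichment in place of recovered heights, limma called 11 members lower and 21 higher, and on the mean height over a region's peaks 628 and 457.

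The size of that balance rests on dividing by mean coverage. The authors' deposited table has its own scaling and takes its fold change at each region's best window. At an FDR under 0.05 in it, 3980 of 7026 members with a tested region fell (56.6%) and 340 rose (4.84%). Of all its regions, 46.3% fell and 12.7% rose. The median fold change of members in the authors' deposited table was -0.73 log2 units. At the 354 members whose best window lay within 150 bp of every library's summit, that table was offset by -0.31 log2 units from coverage-scaled heights (Pearson r 0.989 over regions). With KO heights shifted by this offset, an alternative chosen after seeing the data, limma called 3410 members lower and 267 higher. Without WT replicate 2 or WT replicate 3, on the coverage scale, limma called 651 and 620 members lower, in place of 982, and 867 and 699 higher, so that higher calls outnumbered lower ones. Of 981 members called lower by limma with a tested region, 972 were lower in the authors' deposited table. That table comes from the same series and lies lower at the median member, so this overlap is not independent support. Of 903 called higher by limma, the authors' deposited table called 280 higher and 140 lower and left 483 uncalled.

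**Figure D3:**
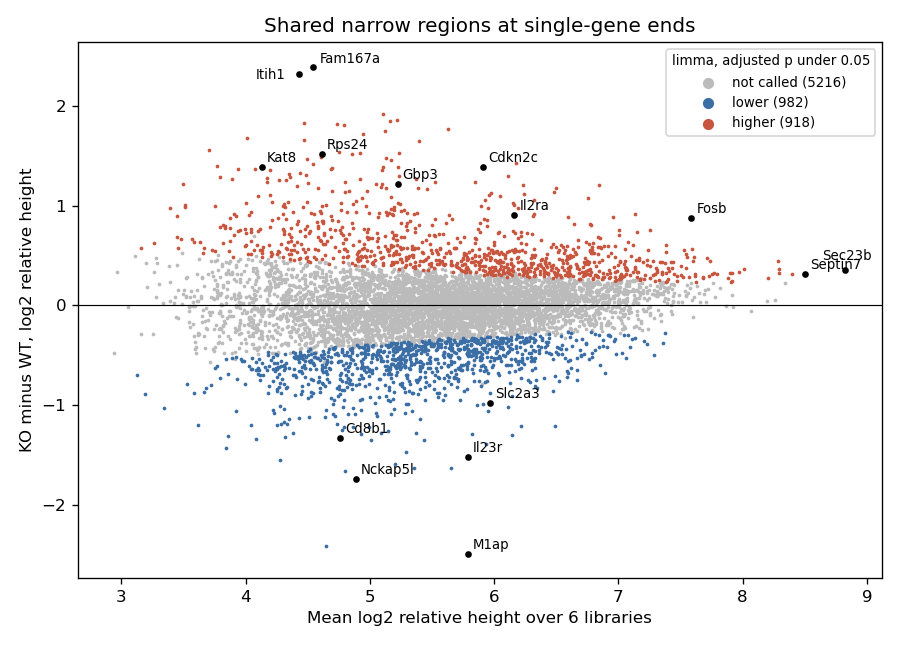
KO minus WT difference in log2 relative height against the mean log2 relative height over 6 libraries, 1 point per region, coloured by the limma call (982 lower, 918 higher, 5216 not called). The cloud is centred on 0, and most of the tallest regions, at the right, lie above it.

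Calls varied with height and with CpG content. With the members split into 4 groups of 1779 by mean height, the lowest group (7.69 to 31.1) had 292 lower and 237 higher calls by limma. The next group had 297 lower and 167 higher, and the one above it 238 and 162. In the tallest group (69.8 to 454.2) the order was turned, with 155 lower and 352 higher. The median difference was -0.04 log2 units in the lowest group and 0.08 in the tallest, and its median SE fell from 0.178 to 0.111, so the same difference was more easily called in tall members. Among starts with a CpG ratio under 0.2, 28 of 91 (30.8%) were lower, against 65 of 692 (9.39%) at ratios of 1 or more, while higher calls made up 16.5% and 12.3%. AP-1 letters were found in 8.17% of the starts called higher, 3.66% of those called lower and 3.59% of those uncalled. Those of NRF1 were found in 4.18%, 3.14% and 7.89%. Far-end members had 72 lower (17.3%) and 109 higher (26.1%) calls of 417, against 13.1% and 11.8% of start members. By chromosome, lower calls ranged from 10.3% on chromosome 2 to 17.6% on chromosome 9, and higher calls from 8.56% on X to 15.6% on chromosome 3.

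Slc2a3, which encodes GLUT3 and is the targeted gene, had a member at one gene end (chr6:122800494-122803076). Its relative height was 83.7, 86.5 and 93.3 in WT and 44.4, 42.9 and 46.8 in KO. Every KO library was below the lowest WT library. It fell by 0.98 ± 0.12 log2 units (SE, limma, adjusted p = 3.1e-07), and in the authors' deposited table by 1.80 (FDR 8.24e-18). An acetylation level does not measure whether the exons were deleted.

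Slc2a1, which encodes the transporter GLUT1, moved the other way (chr4:119104194-119110653). Heights of 53.9, 53.2 and 53.2 in WT stood against 69.8, 70.0 and 80.5 in KO. The median summit of this member over the libraries lay at -2496.5 bp, upstream of the start and away from it. The KO libraries were all above WT, by 0.46 ± 0.12 log2 units (SE, limma, adjusted p = 0.00348), whereas the authors' deposited table gave -0.47 (FDR 0.506) and the single-read peak lists -0.01. On mean height over its peaks, limma made no call at Slc2a1 (0.32, adjusted p = 0.108). Pgk1, a glycolytic kinase gene on X, had heights of 68.4, 82.2 and 70.7 in WT and 112.6, 112.4 and 106.5 in KO. It was higher on the coverage scale by 0.59 ± 0.11 (limma, adjusted p = 0.000124) and lower by 0.89 in the authors' deposited table (FDR 0.00515), and on mean height limma made no call (0.24, adjusted p = 0.189). Ldha, which encodes lactate dehydrogenase A, was uncalled by limma (60.7, 94.0 and 97.0 in WT, 80.6, 65.6 and 73.3 in KO). It was lower in the authors' deposited table (-1.77, FDR 4.25e-17). Over the list of glucose uptake and glycolysis genes, 3 of 19 members were lower and 2 higher by limma, with a median of -0.11 log2 units. For this and every later list, the share to compare is that of all members, 13.8% lower and 12.9% higher by limma. Over all shared regions it was 14.8% and 19.7%. By the authors' deposited table, 15 of the 19 fell and 0 rose, where 56.6% of all members fell and 4.84% rose. Without WT replicate 1, limma called 5 of these members lower, Ldha among them (-0.39), and without WT replicate 2, WT replicate 3 or KO replicate 2 it called 1 lower.

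Genes of acetyl-CoA supply and histone acetylation had 0 lower and 5 higher members of 27 by limma, with a median of 0.12 log2 units. By the authors' deposited table, 12 of the 27 fell and 1 rose. With KO heights shifted by the offset given above, limma called 7 lower and 1 higher, so the direction of this list turned with the scale. On the coverage scale without WT replicate 3, KO replicate 2 or KO replicate 3, limma called 3 higher, as it did on mean height. Acly, the ATP citrate lyase gene, had heights of 36.6, 40.5 and 37.7 in WT and 35.2, 31.0 and 28.1 in KO. The KO libraries were below WT at Acly, but limma made no call (-0.29 ± 0.15 SE, adjusted p = 0.132). Acly was lower in the authors' deposited table (-0.61, FDR 0.0349). Kat8, the acetyltransferase gene also called Mof, had a low region near its start that rose from 9.78, 12.1 and 10.8 in WT to 28.7, 27.5 and 28.6 in KO. That region was higher by 1.38 ± 0.18 (SE, limma, adjusted p = 1.06e-06) and by 1.25 in the authors' deposited table (FDR 9.97e-07). Its summit lay 2466 bp into the gene, away from the start itself. Kat2b, which encodes PCAF, and Dld, a subunit gene of pyruvate dehydrogenase, were higher by 0.49 and 0.39 on the coverage scale and lower by 0.99 and 1.19 in the authors' deposited table. Dld lost its limma call without KO replicate 3 (0.32).

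Among Th17 lineage and effector genes, 4 of 20 members were lower and 3 higher by limma, with a median of -0.08 log2 units, and the authors' deposited table called 11 of 19 lower and 1 higher. Without WT replicate 2 or WT replicate 3, 2 were lower by limma. On single-read lists, which gave this gene list 40 members, 10 were higher. The largest fall in this list was at the start of Il23r (chr6:67488194-67494581), which encodes the receptor chain for the cytokine IL-23. Its heights were 86.0, 94.8 and 100.3 in WT and 26.0, 35.4 and 37.9 in KO, with the KO libraries all below the lowest WT library. The difference was -1.52 ± 0.14 log2 units (SE, limma, adjusted p = 4.05e-09), and -2.17 in the authors' deposited table (FDR 3.1e-19). Stat3, the transcription factor downstream of IL-6 and IL-23, overlapped between genotypes (48.6, 75.6 and 68.7 in WT, 47.6, 51.6 and 42.1 in KO). It was called lower by limma (-0.43, adjusted p = 0.0225) and in the authors' deposited table (-2.15, FDR 3.56e-16). By the single-read lists it was 0.32 higher, with no call. Leaving out WT replicate 2, WT replicate 3 or KO replicate 3 also ended the Stat3 call (-0.30, -0.37 and -0.35). Batf start and far-end regions were both uncalled by limma, at -0.07 and 0.08. In the authors' deposited table the Batf start was lower (-1.72, FDR 1.91e-09) and its far end was uncalled (-0.46, FDR 0.255). Far-end regions of Tgfbr2 and Il1r1, receptor genes for TGF-beta and IL-1, were low and rose: Tgfbr2 from 14.8, 12.6 and 12.5 to 22.2, 20.1 and 24.4, and Il1r1 from 8.78, 13.2 and 10.1 to 15.2, 19.7 and 20.3. Rora, Il17a, Il17f and Hif1a had no member.

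T cell receptor signalling genes had 7 lower and 4 higher members of 21 by limma, with a median of -0.08 log2 units, and the authors' deposited table called 13 of 20 lower and 0 higher. Without WT replicate 3, 4 were lower and 1 higher by limma, and without KO replicate 1, 2 were higher. On mean height 4 were lower and 1 higher. Csk, the kinase that restrains Lck, fell from 31.3, 33.0 and 36.7 in WT to 16.2, 18.4 and 12.5 in KO (-1.12 ± 0.18 SE, limma, adjusted p = 1.77e-05). Pdcd1, which encodes the inhibitory receptor PD-1, went from 107.1, 110.9 and 106.0 to 75.2, 79.6 and 76.4, by -0.49 ± 0.10 (limma, adjusted p = 0.000584). Both groups were tight at this gene and did not overlap. Nfatc1, a calcium-regulated transcription factor gene, was lower by 0.58 log2 units, which limma called at an adjusted p of 0.00171. Cd3e, a chain of the T cell receptor complex, was tall in both genotypes and uncalled by limma (131.9, 163.2 and 151.2 in WT, 161.3, 153.9 and 153.3 in KO). The authors' deposited table called Cd3e lower (-1.12, FDR 0.000267).

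Genes induced early after stimulation were tall, and on the coverage scale more of them were called higher than lower. Of 25 members, 10 were higher and 1 lower by limma, with a median of 0.09 log2 units, and the median height was 73.4. Limma called 12.9% of all members higher and 13.8% lower. In the tallest group of members by height (69.8 to 454.2) those shares were 19.8% and 8.71%. The count of higher members was 7 to 9 and that of lower ones 0 to 3 when 1 library was left out. On mean height, 6 of the 25 were higher and 2 lower. Single-read lists gave this gene list 57 members, of which 18 were higher and 4 lower. By the authors' deposited table, 2 of 24 rose and 11 fell. Fosb, which encodes an AP-1 subunit, had heights of 127.9, 141.1 and 159.2 in WT and 274.4, 266.3 and 241.6 in KO at its start. It was higher in both sources, by 0.87 ± 0.10 (SE, limma, adjusted p = 9.55e-08) and by 0.83 in the authors' deposited table (FDR 0.00122). Jun, another AP-1 gene, went from 158.7, 151.4 and 166.3 to 220.8, 224.8 and 219.8, by 0.48 ± 0.09 (limma, adjusted p = 0.000129), and was uncalled in the authors' deposited table (-0.54, FDR 0.286). The Jun call also ended in limma fits on mean height (0.26, adjusted p = 0.252) and on single-read lists (0.23, adjusted p = 0.131). Il2ra, the alpha chain gene of the IL-2 receptor, had its member at the far end of the gene, at 58.4, 54.6 and 44.8 in WT and 105.0, 97.1 and 93.0 in KO. That region was higher in both sources (0.91 by limma, adjusted p = 1.37e-06, and 0.66 in the authors' deposited table, FDR 0.00418).

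Interferon response genes had 7 higher and 2 lower members of 21 by limma, with a median of 0.05 log2 units, and the authors' deposited table called 3 higher and 8 lower. Without WT replicate 2, WT replicate 3 or KO replicate 1, 1 was lower by limma, and on mean height 4 were higher. Gbp5 and Gbp3, which encode interferon-induced GTPases, led the rise. Gbp5 went from 45.4, 52.6 and 52.2 to 93.1, 106.3 and 106.5, and Gbp3 from 21.3, 29.9 and 23.2 to 62.2, 43.7 and 67.6. The limma differences were 1.03 ± 0.12 and 1.21 ± 0.17 log2 units (adjusted p = 1.27e-07 and 2.32e-06). In the authors' deposited table Gbp3 was higher (0.93, FDR 0.000106) and Gbp5 was uncalled (0.715, FDR 0.0567). Ifit2, another interferon-induced gene, moved against them, from 47.4, 48.9 and 47.8 down to 27.1, 22.7 and 27.0 (-0.91 ± 0.15, limma, adjusted p = 1.8e-05).

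Genes of cytosolic ribosomal proteins had more lower than higher calls in both sources. Of 43 members, 18 were lower and 2 higher by limma, with a median of -0.22 log2 units against 0.00 over all members, and the median height was 76.9. The number lower was 11 without WT replicate 2, 11 without KO replicate 2, and 22 at most when 1 library was left out, and 11 on mean height. By the authors' deposited table, 40 of 42 fell and 1 rose. Rpl14 went from 73.7, 94.0 and 82.1 in WT to 43.3, 56.8 and 56.1 in KO (-0.68 ± 0.13 SE, limma, adjusted p = 0.000168). Rpl37a went from 78.7, 95.7 and 96.3 to 61.2, 55.1 and 63.4 (-0.59 ± 0.12, limma, adjusted p = 0.000303). In both genes every KO library was below every WT library.

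Rps24 showed opposite calls within one gene. Its start region (chr14:24490057-24493666) had heights of 89.3, 104.9 and 99.0 in WT and 79.6, 73.9 and 79.5 in KO. The region at its far end (chr14:24493750-24496648), which begins just after the first one stops, had 18.1, 13.2 and 12.8 in WT and 40.6, 42.0 and 41.6 in KO. The start was lower by limma (-0.33, adjusted p = 0.0195) and the far end higher (1.51 ± 0.17, adjusted p = 1.28e-07). Among the 523 genes with a pair of members, 18 had both lower, 21 both higher and 14 opposite calls. Lipe, which encodes hormone-sensitive lipase, is another of the 14 and was chosen after its values were seen. Its far-end region fell from 39.4, 40.2 and 45.4 to 20.0, 22.7 and 18.7, while its start rose from 49.6, 64.7 and 47.8 to 72.0, 79.6 and 82.1.

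The remaining lists held 24 to 38 members each. Mitochondrial respiration genes had 3 lower and 1 higher of 29 members by limma. Atp5g2 and Cox7c were lower (-0.41 and -0.35) and the far end of Cycs, the cytochrome c gene, was higher (0.56). In the authors' deposited table Atp5g2 and Cox7c were lower (-1.21 and -0.69) and Cycs was uncalled (0.31, FDR 0.949). Without WT replicate 2, WT replicate 3 or KO replicate 2, limma called 1 of the 29 lower. Atp5g2 lost its call without WT replicate 2 (-0.29), and Cox7c lost its own without WT replicate 1 (-0.27), WT replicate 3 (-0.37) or KO replicate 2 (-0.27). Proteasome genes had 1 lower (Psma6, -0.75) and 1 higher (Psmb2, 0.35) of 24 by limma. In the authors' deposited table both were lower (Psma6 -1.18, FDR 1.12e-05, and Psmb2 -0.74, FDR 0.0233). Psmb2 lost its limma call without WT replicate 1, WT replicate 3, KO replicate 1 or KO replicate 3 (0.28, 0.37, 0.28 and 0.31). Splicing genes had 2 lower, Snrpd1 (-0.46) and U2af1 (-0.39), and 0 higher of 27. Of the splicing members, 5 were lower without WT replicate 1, and 1 was lower without WT replicate 2 or KO replicate 3. U2af1 lost its call without WT replicate 2 (-0.30), WT replicate 3 (-0.39), KO replicate 2 (-0.39) or KO replicate 3 (-0.36). RNA polymerase II and Mediator genes had 5 lower, led by Med30, Med17 and Taf12 (-0.48, -0.50 and -0.44), and 2 higher of 38. Without WT replicate 2 or WT replicate 3, 3 of these were lower, the count of higher ones was 0 or 1 without any one library other than WT replicate 1, and Med30 and Taf12 lost their calls without WT replicate 2 and WT replicate 3 (-0.40 each). Autophagy and lysosome genes had 2 lower, the cathepsin genes Ctsc (-0.48) and Ctss (-0.63), and 4 higher of 28, of which 2 were called without WT replicate 3 or without KO replicate 3. Cell cycle and DNA replication genes had 3 lower and 6 higher of 35, and 5 and 11 of 44 members on single-read lists. Their leader was Cdkn2c, which encodes the CDK inhibitor p18, with 37.1, 36.8 and 37.7 in WT and 107.7, 93.6 and 90.4 in KO. Cdkn2c was higher by 1.38 ± 0.12 log2 units (SE, limma, adjusted p = 1.88e-09) and by 1.12 in the authors' deposited table (FDR 4.05e-07). Cdk1 and Bub1b, genes of mitosis, were higher by limma at 0.90 and 0.71 and uncalled in the authors' deposited table (FDR 0.0558 and 0.102).

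**Figure D4:**
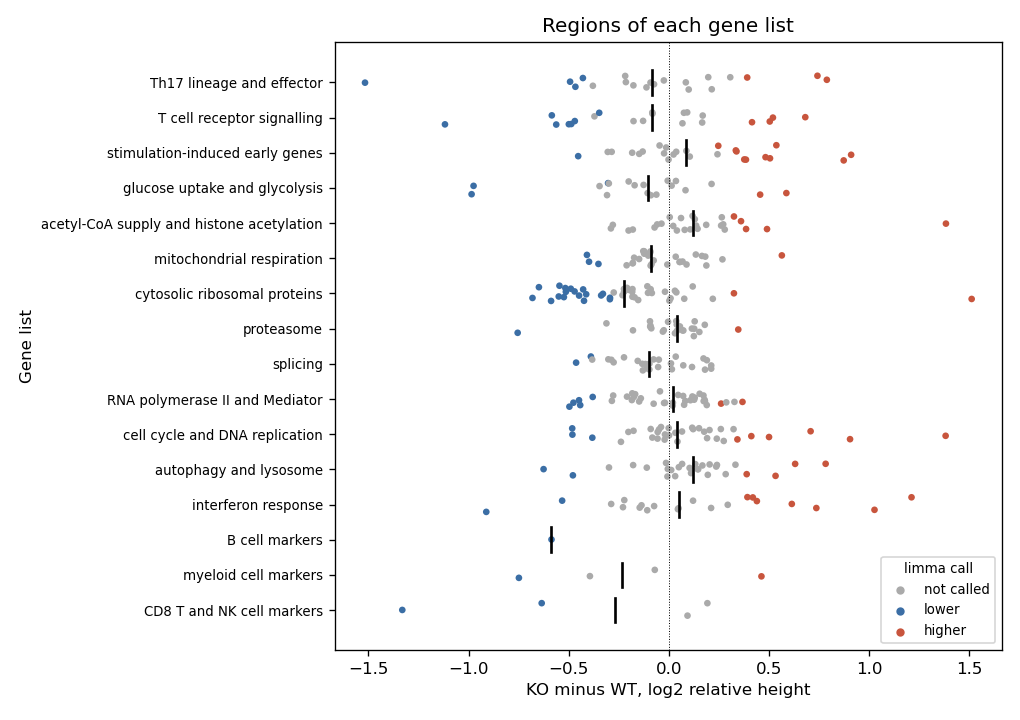
KO minus WT difference in log2 relative height of the members of each gene list, 1 point per region, coloured by the limma call, with a black bar at the list median and a dotted line at 0. Ribosomal protein genes lie mostly left of 0 (median -0.22), and the early genes have 10 higher points and 1 lower.

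Marker genes of other cell types gave few members, and some of these were lower in KO. Cd8b1, a CD8 chain gene, had heights of 39.4, 46.0 and 44.1 in WT and 15.7, 16.2 and 19.7 in KO, without overlap (-1.33 ± 0.16 SE, limma, adjusted p = 3.74e-07). Klrk1, the NKG2D gene, was lower by 0.63 and Klrd1 was uncalled, so 2 of 4 CD8 T and NK cell members were lower. The B cell factor gene Ebf1 was lower (-0.59, the only B cell member), as was the Fc receptor gene Fcgr3 (-0.75), while the myeloid gene Cd14 was higher (0.46). The authors' deposited table called Ebf1 and Fcgr3 lower (-1.44 and -1.08) and left Cd14 uncalled (0.39, FDR 0.49). Cd14 lost its limma call without any one of WT replicate 2, WT replicate 3, KO replicate 1 and KO replicate 3, with values of 0.49, 0.35, 0.49 and 0.29. Medians of the CD8 T and NK list and of the myeloid list were -0.27 and -0.23 log2 units, each over 4 members. Summed relative height over the members of each list was 118.8 to 123.4 in WT and 75.7 to 98.2 in KO for CD8 T and NK cell markers, and 167.7 to 195.7 against 128.1 to 144.5 for myeloid markers, without overlap. Each separation rested on 1 gene. Without Cd8b1 the first sum was 74.7 to 83.99 in WT and 59.5 to 78.5 in KO, and without Fcgr3 the second was 70.7 to 75.0 and 64.3 to 84.7. The part of other cells in the results was not tested.

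With Gm and Rik symbols left out, the 10 tallest members by mean over the 6 libraries were Sec23b, Septin7, Frat2, H2-T24, Upf2, LTO1, Lars, Arhgap11a, Eapp and Hjurp. Sec23b reached 384.1, 413.4 and 409.4 in WT and 527.1, 521.3 and 491.6 in KO, higher in KO by 0.35 ± 0.08 log2 units (SE, limma, adjusted p = 0.000934) and uncalled in the authors' deposited table. Its summit lay at -211 bp, upstream of the start, and its promoter is shown above. Septin7 had 284.8, 348.3 and 350.1 in WT and 416.7, 383.9 and 413.6 in KO. By limma it was higher (0.31, adjusted p = 0.00775), in the authors' deposited table lower (-1.38, FDR 2.37e-09), and in the single-read lists -0.22. Of the 10, 7 were higher and 0 lower by limma. The authors' deposited table, read at the best window, called 3 of those 7 lower (Septin7, Upf2 and Lars) and 0 higher. With KO heights shifted by the offset given above, limma called none of Septin7, Upf2 and Lars (-0.0025, 0.057 and 0.13). Eapp lost its limma call without WT replicate 1, KO replicate 2 or KO replicate 3 (0.15, 0.27 and 0.21).

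Outside Gm and Rik symbols, the largest falls that both sources called were at M1ap, which had a pair of members. The region beginning 1582 bp from the gene's start had 131.6, 131.6 and 129.3 in WT and 27.6, 22.7 and 20.3 in KO (-2.49 ± 0.13 SE, limma, adjusted p = 2.92e-13). The one over the start had 62.2, 66.4 and 46.5 in WT and 15.2, 10.1 and 8.31 in KO (-2.41 ± 0.20, limma, adjusted p = 5.87e-10). In the authors' deposited table these regions gave -2.84 and -2.75. Nckap5l fell from 50.4, 56.6 and 55.2 to 16.2, 14.4 and 18.2, and Arhgef18, a guanine nucleotide exchange factor gene, from 87.3, 87.4 and 90.9 to 30.8, 28.4 and 26.5. Their limma differences were -1.74 and -1.63 log2 units. Galm, which encodes galactose mutarotase, was lower by 1.66, Tnn, the tenascin N gene, by 1.59 at its far end, and Slfn5, a Schlafen gene, by 1.55. Zmym2 had its member inside the gene, 1032 bp from the far end, at 77.5, 71.0 and 68.3 in WT and 33.0, 34.98 and 10.9 in KO, with KO library 3 far below the others. Its limma difference was -1.63 with that library and -1.09 without KO replicate 3.

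The largest rises, again outside Gm and Rik symbols, came from regions that were low in WT. Fam167a went from 10.3, 9.48 and 10.8 to 48.7, 53.4 and 58.2 (2.39 ± 0.17 SE, limma, adjusted p = 3.84e-11). Itih1 went from 13.3, 8.33 and 8.08 to 38.4, 57.7 and 49.9 (2.32 ± 0.20, limma, adjusted p = 1.67e-09), with a summit at -942 bp, upstream of the start. The authors' deposited table gave 2.63 and 2.32 for these regions. Hhipl1 and Rbks, a ribokinase gene, were higher by 1.91 and 1.85 log2 units near their far ends. Stmn4 (1.86), Cavin3 (1.82), Zfp366 (1.81) and Upk3bl (1.81) complete the 8. Of the 99 members that limma called higher by at least 1 log2 unit, 49 were at starts, 27 at far ends and 23 at genes without a strand in the table. Among the 65 lower by as much, those numbers were 41, 12 and 12.

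**Figure D5:**
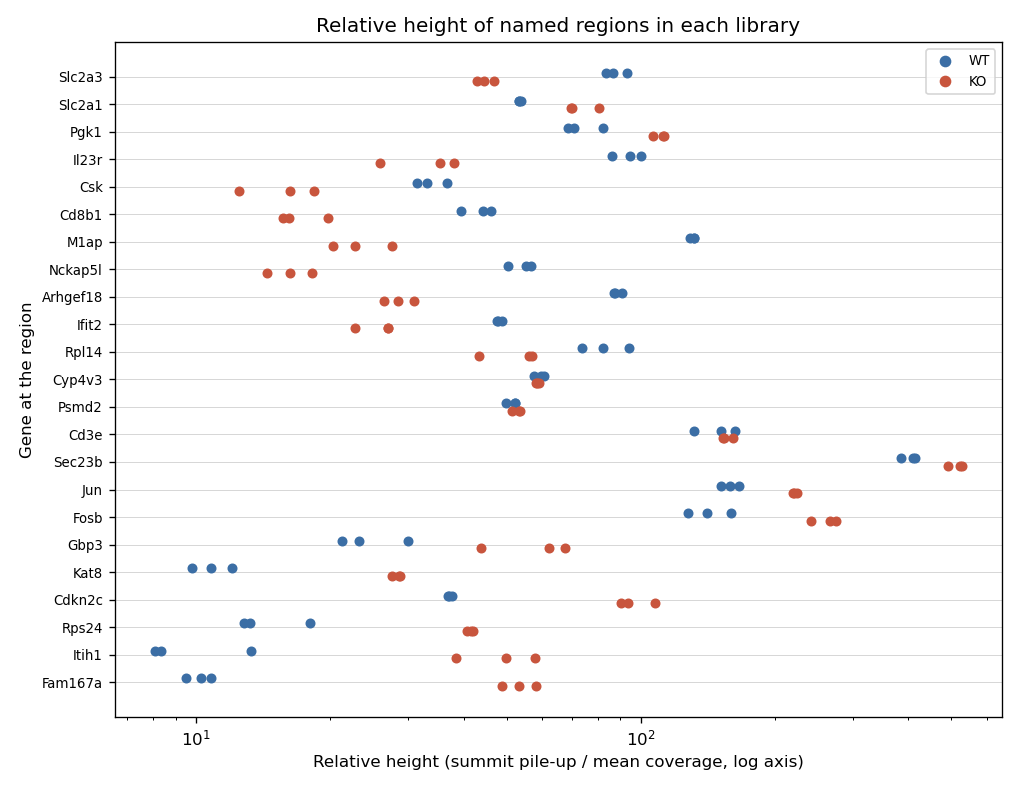
Relative height (summit pile-up over mean coverage, log axis) of 23 named regions in each of 3 WT and 3 KO libraries, 1 point per library; for M1ap the region within the gene is shown. Groups are apart at the regions from Slc2a3 to Rpl14 and from Sec23b to Fam167a, and overlap at Cyp4v3, Psmd2 and Cd3e.

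Some members hardly varied. Cyp4v3 had 57.4, 59.8 and 60.6 in WT and 58.4, 59.0 and 58.2 in KO, and Psmd2 had 49.9, 52.0 and 52.2 against 53.6, 53.4 and 51.4. Capsl, Serpinf2, Impact and Fam168a were as steady, with limma differences of -0.03, -0.05, -0.03 and -0.02 log2 units. In the authors' deposited table, read at the best window, Cyp4v3, Capsl, Serpinf2, Impact and Fam168a were lower (-0.81, -0.92, -1.23, -1.22 and -1.0). Psmd2 was uncalled there (-0.52, FDR 0.161). With KO heights shifted by the offset given above, limma gave -0.33, -0.34, -0.37, -0.34 and -0.34 in the same order, and -0.27 for Psmd2. The remaining gap between the sources was not tested.

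Of 4 genes often used as references, Hprt and Actb had a member. Hprt, a purine salvage gene on X, overlapped between genotypes (30.6, 40.8 and 33.3 in WT, 51.4, 40.2 and 47.8 in KO) and was called higher by limma (0.42, adjusted p = 0.0299) but uncalled in the authors' deposited table (-0.70, FDR 0.124). The Hprt call was lost without WT replicate 1, WT replicate 3, KO replicate 1 or KO replicate 3 (0.33, 0.39, 0.34 and 0.39). The member at Actb, 154 bp from one end of the beta-actin gene and only 1023 bp wide, was low and uncalled by limma (17.8, 21.6 and 20.5 in WT, 22.2, 15.3 and 13.5 in KO), and lower in the authors' deposited table (-0.76, FDR 0.00665). Gapdh and Tbp had no member.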

How the data were processed

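The members, gene lists and named regions were chosen with earlier results of these data known, so a pattern already known is not independent support. Named regions are those of 20 genes of the study's subject and of reference genes, the 10 tallest members, the 8 lowest and 8 highest by limma that both sources called, the 6 steadiest of those above the median height, up to 3 per gene list by p, and those nearest the limits of the rule. Genes with Gm or Rik symbols were left out of the tallest, lowest, highest and steadiest members.

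Bowtie2 2.3.5.1, an aligner, and MACS2 2.2.6, a peak caller, are among the tools that the submitters' processing notes list, with build GRCm38 (mm10). For each ChIP library the authors deposited one list of peaks from paired-end fragments (used here) and one from single reads (an alternative). A deposited peak has a score, a fold enrichment (a ratio), a −log10 p-value and a −log10 q-value, of which the lowest is 3.00. Regions made of 150 bp windows each have, in the authors' deposited table, a p-value, an FDR, a log2 fold change taken at the best window and counts of windows, but no library values. Its program and scaling, and the control for peak calling, were not given in the sources. Chromosomes, which that table lacks, were assigned by order, and 24100 of 24100 listed regions checked matched.

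Pile-up height and background were solved from each peak's deposited fold and p-value. Mean coverage is the lowest background that 25 or more peaks share. For 99.8% to 100% of peaks a height matched the deposited −log10 p to 0.01. WT replicates 1 and 2 had been scaled by 0.89 and 0.92. Log2 relative heights of all 20097 shared regions were fitted with limma 3.58.1 (trend, no covariates) and adjusted by Benjamini-Hochberg. Library medians were compared by exact permutation tests over 9 measures. The scripts were tested on simulated data. Some genes of the lists are not reported here. Promoters came from RefSeq (GRCm38.p6). Of 609 list entries in 17 lists, 605 matched the annotation. Alternatives were other scalings and height measures, stricter or single-read peaks, a 1 kb limit, and each library left out. Relative heights carry counting error that shallower KO libraries make larger.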

Additional observations from a re-analysis of the deposited data

How the results depend on the processing

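The size of the members' balance between lower and higher calls depended most on the height measure and its scaling. Limma called 982 members lower and 918 higher on coverage-scaled heights, 3410 and 267 on the authors' scale (chosen after seeing the data), 11 and 21 on the deposited fold enrichment, which divides by a local background estimated per peak, and 628 and 457 on the mean height over peaks. Leaving out 1 library gave 620 to 1161 lower and 699 to 867 higher. Higher calls outnumbered lower ones without WT replicate 2 (867 against 651) or WT replicate 3 (699 against 620). They also did so in single-read lists (1027 against 976, of 8169 members) and on the deposited fold. The cause of these changes was not tested. Counts stayed within 1.5 times under median scaling, stricter peaks, single-read lists, a height of at least 10 and the 1 kb limit, and in the authors' deposited table under its 4 alternatives. Same-numbered libraries did not deviate together (correlations -0.01 to 0.04, and 3 of 6 libraries correlated best with their own number), so the main fit did not pair them. Whether they share an origin was not tested. The replicate block gave 961 lower and 912 higher, and among named regions it ended the call of Cd14 and made one of H2-T24. The gap to gene bodies was 0.79 to 0.84 and that to ends of 2 or more genes -0.25 to -0.24 with 1 library left out, where 5 libraries allow no exact p below 0.0625. The gap between genotypes of the latter was -0.01 to 0.02 with 1 library left out and -0.028 within 1 kb. Covered width differed by -197.7 bp (KO minus WT) in single-read lists. Most named calls were lost on the deposited fold: limma gave none at 55 named regions called in the main fit, with their direction kept. Slc2a3, Il23r, Csk, Fosb, Cdkn2c and Kat8 were among these (limma adjusted p = 0.478, 0.11, 0.183, 0.0852, 0.246 and 0.0926). Another 7 turned direction, and 13 were unchanged (still called, or uncalled and within the SE of the main value). Directions of called regions were turned by the deposited fold for Stat3 (0.98), Upf2 (-0.34), Lars (-0.17), Eapp (-0.30), Pdcd1 (0.20), Dld (-0.079) and Psma6 (0.0045), by mean height for Frat2 (-0.35), by single-read lists for Slc2a1 (-0.0084), Stat3 (0.32) and Septin7 (-0.22), and by the authors' scale for Septin7 (-0.0025), Frat2 (-0.0024) and Eapp (-0.042). Depth limits short members most, since the shallowest had 10 fragments at its summit in 1 library.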
